A study of Mus musculus with 12 samples.

Results

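Expression of *Atf4* and 9 other regulators of the integrated stress response was followed in mouse bone marrow cells cultured with indole-3-propionic acid (IPA), a tryptophan metabolite made by gut bacteria. The 10 genes are *Atf4*, *Atf5*, *Atf3*, *Ddit3*, *Trib3*, *Nupr1*, *Chac1*, *Sesn2*, *Ddit4* and *Ppp1r15a*, taken by symbol from a count table of 54532 genes. They were selected on measured changes in these same 12 libraries, so their levels and differences describe the response and are no independent evidence of it. All 10 passed the filter on low counts, as did 14894 genes in all. A second row with the symbol *Ddit3* (ENSMUSG00000116429), of 105 exon bases that all lie inside the main *Ddit3* gene, had 0 counts in every library and was left aside.

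Bone marrow was taken from wild-type C57BL/6 mice, and its cells were kept for 5 days in RPMI medium with 10% serum. Every culture also held GM-CSF and IL-6, cytokines that drive myeloid differentiation, each at a concentration of 20 ng/ml. The groups differed only in what was added, which was vehicle (0.1% DMSO), 10 µM IPA or 50 µM IPA, with 4 libraries each. According to the paper, cell viability in this culture assay was slightly reduced at the higher dose, which it calls supraphysiological. For that reason its own RNA-seq analysis centred on the lower dose. The part of viability in the results below was not tested. The study's mice were females of 8 to 14 weeks, and neither labels nor methods say whether the 4 libraries of a group came from separate animals, so the p-values measure the spread between these libraries. The whole mixed culture was sequenced, and in such bulk samples fewer cells of a type and less RNA per cell cannot be told apart.

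Cells under stress slow general translation by phosphorylating the initiation factor eIF2, through the kinases HRI, PKR, PERK and GCN2 (*Eif2ak1* to *Eif2ak4*). The mRNA of *Atf4* escapes this block, since short upstream reading frames let ribosomes reach its start codon when eIF2 is scarce, and ATF4 then switches on genes for amino acid supply, redox balance and recovery of translation. Much of the control of ATF4 is therefore on its protein, which RNA-seq does not measure, while *Ddit3*, *Trib3*, *Chac1*, *Sesn2* and the others read the pathway out at the level of mRNA.

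Total counts lay between 20451312 and 28038612 per library. Markers of neutrophils, monocytes and macrophages were abundant in every library. The 4 eosinophil markers summed to 811 to 1285 CPM over all libraries, and the 6 of mast cells and basophils to 197 to 293. The 6 markers of T and NK cells summed to 7.84 to 19.4 CPM over all libraries and the 5 of red cells to 0.435 to 1.30, and 1 marker of each list, *Ncr1* and *Hbb-bs*, had at most 3 counts in every library. The summed level of 10 neutrophil markers was 20110.3 to 28425 CPM (counts scaled by library size) with vehicle, 18629 to 21643 at 10 µM and 14117 to 19695 at 50 µM, and 6 of the 10 fell at 50 µM against vehicle. The summed level of 5 B cell markers was 18.3 to 25.3, 22.6 to 32.7 and 36.5 to 56.6 CPM in the same order, and all 5 rose. The 6 monocyte markers summed to 2687 to 3423, 3837 to 4923 and 2417 to 3119.7 CPM, and 3 of them fell at 50 µM. The 7 dendritic cell markers summed to 83.9 to 97.5, 88.2 to 97.6 and 105 to 133 CPM, so that 50 µM lay above both other groups, as it did for 9 of the regulators. The 8 macrophage markers summed to 1689 to 1879, 2007 to 2209 and 1706 to 1826 CPM, and they stood apart at 10 µM, as the monocyte markers did. The part of these cell types in the results was not tested. All levels below are CPM after TMM normalization over the 12 libraries, each difference comes from edgeR's quasi-likelihood test fitted on all 14894 genes, and a gene counted as called at an adjusted p under 0.05.

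*Atf4* (ENSMUSG00000042406, GRCm38 chromosome 15, 80255184 to 80257541, plus strand) encodes the central transcription factor of the response. Its 4 libraries with vehicle had 277, 290.1, 279 and 280.5 CPM. At 10 µM it had 264, 282, 293 and 268 CPM, within and around the range with vehicle. At 50 µM it had 355, 379.5, 444 and 408 CPM, and every one of these lay above all 8 other libraries. The vehicle mean was 282 ± 5.73 CPM (SD, n = 4) and the 50 µM mean 397 ± 38.1 CPM (SD, n = 4). On the log2 scale this was 0.50, with a standard error of 0.08. Against vehicle the change at 10 µM was -0.03 (95% interval -0.15 to 0.10).

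*Atf5* (chromosome 7, 44812256 to 44816658, minus strand) encodes a close relative of ATF4 whose translation is also favoured when eIF2 is phosphorylated. It had 40.5, 36.9, 41.8 and 49.5 CPM with vehicle and 50.1, 44.3, 48.7 and 43.4 at 10 µM, groups that overlapped. At 50 µM it had 69.2, 68.6, 56.4 and 67.7 CPM, so that replicate 3 sat below the other libraries of its group but still above all with vehicle. The log2 fold change at 50 µM was 0.64 (standard error 0.10). Exons of *Atf5* share 82 bases with *Nup62* on the opposite strand, a gene with up to 3665 counts, and since the strand setting of the counting is not named, some of its reads may stand under *Atf5*.

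*Ddit3* (chromosome 10, 127290774 to 127296288, plus strand) encodes CHOP, a target of ATF4 that is known for promoting death under prolonged stress. It was low with vehicle, at 7.52, 9.24, 6.49 and 6.91 CPM, and similar at 10 µM, at 8.36, 6.92, 7.63 and 7.92 CPM. At 50 µM it reached 10.1, 15.3, 17.6 and 16.8 CPM. Replicate 1 of the 50 µM group was the lowest of its group and came close to the highest library with vehicle, but the groups did not overlap. The mean went from 7.54 ± 1.21 (SD, n = 4) to 14.9 ± 3.38 CPM (SD, n = 4), which was 0.99 on the log2 scale (standard error 0.17). *Ddit3* shares 68 exon bases with *Mars* on the opposite strand, which had up to 3111 counts.

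*Atf3* (chromosome 1, 191170296 to 191218039, minus strand), a stress-inducible factor that often acts as a repressor, had another pattern than the rest. It had 48.5, 52.1, 66.9 and 49.6 CPM with vehicle and 71.0, 90.5, 83.9 and 74.0 at 10 µM, which did not overlap. At 50 µM it had 70.1, 68.5, 71.9 and 73.7 CPM, also above every library with vehicle. The log2 fold change was 0.56 (standard error 0.11) at 10 µM, where it missed the threshold of edgeR's test (adjusted p = 0.0712), and 0.40 (standard error 0.10, adjusted p = 0.0179) at 50 µM. Between 50 µM and 10 µM it was -0.16 (95% interval -0.33 to 0.00, adjusted p = 0.179). Both results turned on single choices. The call at 50 µM was lost without vehicle replicate 1 (adjusted p = 0.0661) or without 50 µM replicate 4 (adjusted p = 0.0568). At 10 µM the gene was called without vehicle replicate 3 (adjusted p = 0.0222), by DESeq2 (adjusted p = 0.000926), without the filter on low counts (adjusted p = 0.00480) and in the fit of all 12 libraries (adjusted p = 0.0123).

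Among genes that act back on ATF4 and CHOP, *Trib3* (chromosome 2, 152337422 to 152344032, minus strand) had the largest difference of the 10. It encodes a pseudokinase that is induced by ATF4 and CHOP and restrains both of them. It had 10.3, 13.1, 14.8 and 19.0 CPM with vehicle, 13.4, 15.9, 16.8 and 14.6 at 10 µM, and 27.4, 35.01, 36.4 and 44.0 at 50 µM. Its mean at 50 µM was 35.7 ± 6.81 CPM (SD, n = 4), 2.52-fold that with vehicle, and its lowest library there was still well above the highest of the other groups. The log2 fold change was 1.33 (standard error 0.17, 95% interval 0.95 to 1.71). *Nupr1* (chromosome 7, 126623249 to 126630861, minus strand), a small stress-induced chromatin protein, was the lowest of the 10 per length of exon. It had 8.85, 8.13, 7.70 and 6.12 CPM with vehicle, 5.83, 8.18, 9.33 and 9.47 at 10 µM, and 11.1, 11.5, 15.4 and 15.8 at 50 µM. Vehicle and 10 µM overlapped, and 50 µM lay above both, with a log2 fold change of 0.81 (standard error 0.15) against vehicle.

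*Ppp1r15a* (chromosome 7, 45522916 to 45526268, minus strand) encodes GADD34, the inducible subunit that brings a phosphatase to eIF2 and so restores translation. It had 28.2, 33.8, 28.3 and 20.98 CPM with vehicle, 23.0, 27.6, 33.2 and 32.2 at 10 µM, and 36.5, 36.7, 44.4 and 43.1 at 50 µM. The highest library with vehicle and the lowest at 50 µM were close, although the groups did not overlap, and the log2 fold change was 0.54 (standard error 0.13).

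The other 3 members act on redox state and on mTORC1. *Chac1* (chromosome 2, 119351229 to 119354381, plus strand) encodes an enzyme that degrades glutathione. It had 7.56, 6.98, 8.02 and 9.18 CPM with vehicle, 7.86, 7.45, 6.69 and 7.05 at 10 µM, and 11.3, 14.6, 18.1 and 20.1 at 50 µM. Its spread at 50 µM was wide (SD 3.92 CPM), and replicate 1 was again the lowest, but no library at 50 µM reached down to another group, and the log2 fold change was 1.02 (standard error 0.17). *Sesn2* (chromosome 4, 132492032 to 132510501, minus strand) encodes a leucine sensor that holds mTORC1 down. It had 73.3, 75.3, 77.1 and 73.1 CPM with vehicle, 71.9, 78.3, 85.8 and 80.5 at 10 µM, and 97.4, 108.9, 102 and 113 at 50 µM. Its log2 fold change of 0.50 had the smallest standard error at 50 µM (0.07). *Ddit4* (chromosome 10, 59949669 to 59951834, minus strand) encodes REDD1, another brake on mTORC1. It had 18.6, 15.4, 21.2 and 22.9 CPM with vehicle, 16.9, 18.1, 22.9 and 17.99 at 10 µM, and 25.9, 27.0, 30.7 and 38.4 at 50 µM, where all 4 libraries were above the rest, and the log2 fold change was 0.65 (standard error 0.14).

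**Figure D1:**
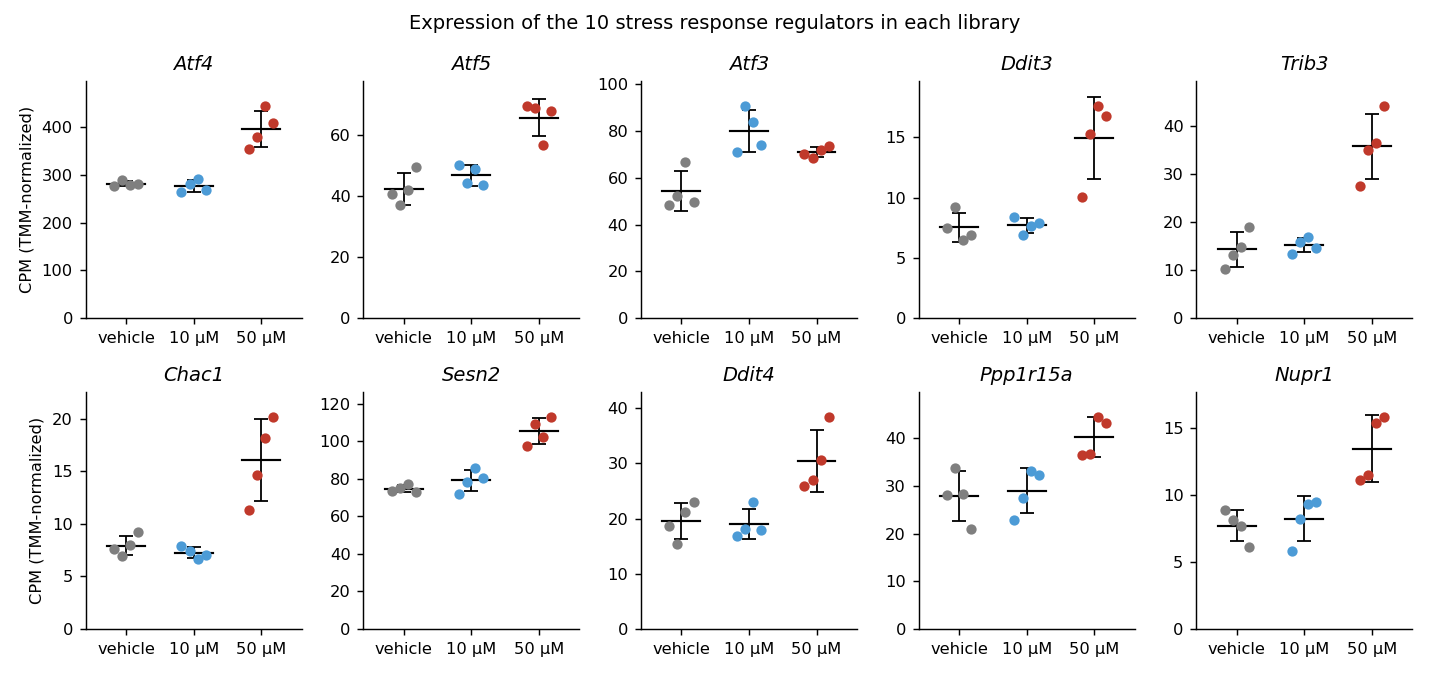
CPM (TMM-normalized, axis from 0) of the 10 regulators in each of the 12 libraries, 4 per group; points are libraries, and the black line and bar are the mean and the SD. All 4 libraries at 50 µM lie above all 4 with vehicle in every panel, and only *Atf3* is also above vehicle at 10 µM.

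Counted over the 10 regulators, 10 were called higher at 50 µM against vehicle, where 7.00% of all genes tested were called higher and 6.50% lower. Their log2 fold changes ran from 0.40 to 1.33 with a median of 0.65, and that of all genes was 0.01. In all 10 the groups did not overlap, which held for 9.45% of all genes in the same direction. The 10 regulators were chosen for such changes, so nothing is read from these shares. Adjusted p-values of edgeR's test lay between 0.000284 and 0.0179. All except *Atf3* stayed called in each of the 8 fits that left out 1 library.

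At 10 µM none of the 10 was called by edgeR's test, 1 had an unadjusted p under 0.05 (*Atf3*; 1308 of all 14894 genes had one), DESeq2 called 1 (*Atf3*) and limma-voom 0. Of all genes, 0.329% were called higher and 0.0806% lower at this dose. Apart from *Atf3*, the log2 fold changes lay between -0.13 and 0.15, with adjusted p of at least 0.758, and their 95% intervals together spanned -0.39 to 0.46. For *Atf4*, *Sesn2* and *Chac1* the upper bounds were 0.10, 0.23 and 0.14, below the differences measured at 50 µM, which were 0.50, 0.50 and 1.02. In 1 of the 10, *Atf3*, the libraries at 10 µM all lay above those with vehicle, against 3.57% of all genes.

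Set directly against 10 µM, 9 of the 10 were called higher at 50 µM, all but *Atf3*. The shares of all genes were 7.52% called higher, 7.85% called lower and 9.43% higher without overlap. The log2 fold changes of the 9 ran from 0.42 for *Sesn2* to 1.24 for *Trib3*, with adjusted p of at most 0.00875 in edgeR's test. This comparison shares its 50 µM libraries with the one against vehicle, so both sets of values stand side by side and not as separate support. Log2 fold changes against 10 µM and against vehicle were 1.15 and 1.02 for *Chac1*, 0.96 and 0.99 for *Ddit3*, 0.72 and 0.81 for *Nupr1*, 0.69 and 0.65 for *Ddit4*, 0.52 and 0.50 for *Atf4*, 0.49 and 0.64 for *Atf5*, and 0.48 and 0.54 for *Ppp1r15a*.

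**Figure D2:**
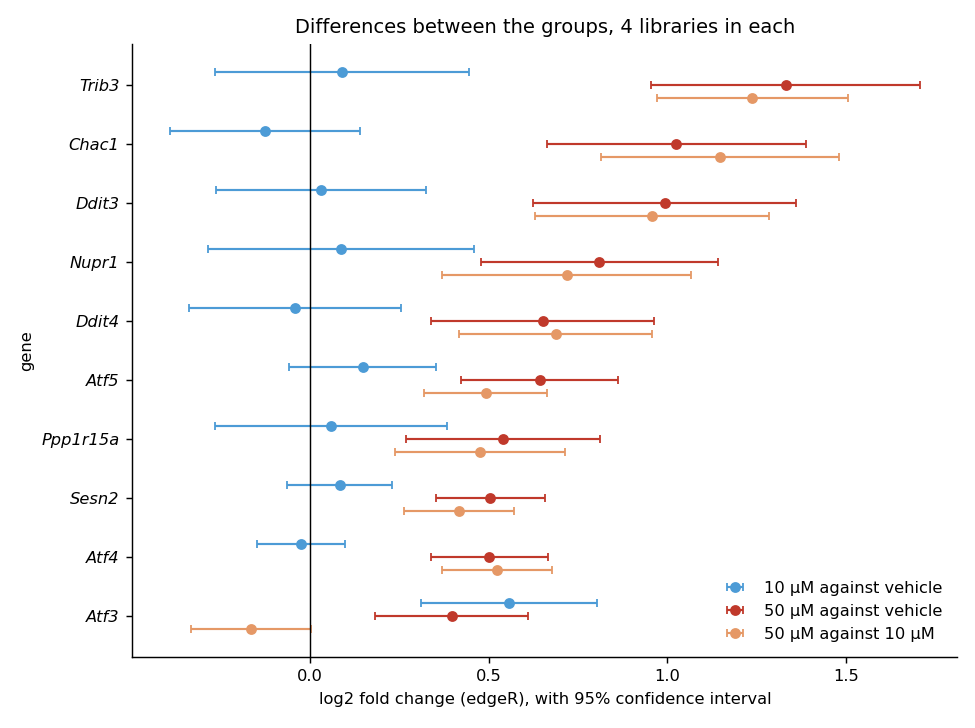
Log2 fold change of each regulator with its 95% confidence interval in the 3 comparisons, 4 libraries per group. At 50 µM every interval against vehicle lies above 0 and *Trib3* is farthest at 1.33, while at 10 µM only the interval of *Atf3* lies above 0.

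Levels between genes were compared as CPM per kilobase of exon. *Atf4* was far above the rest in every group, at 119 ± 2.43 (SD, n = 4) with vehicle, 117 ± 5.53 at 10 µM and 168 ± 16.1 at 50 µM. With vehicle, *Atf3* followed at 25.2 ± 3.97, then *Sesn2* (21.5), *Atf5* (21.2), *Ddit4* (11.1), *Ppp1r15a* (9.47), *Trib3* (6.72), *Chac1* (4.85), *Ddit3* (4.40) and *Nupr1* (3.06). In that order the libraries of *Sesn2* and *Atf5* overlapped, as did each neighbouring pair from *Ddit4* to *Ddit3*. At 50 µM *Trib3* (16.8) stood ahead of *Ppp1r15a* (13.7), a pair that overlapped, and *Atf3*, *Atf5* and *Sesn2* lay together at 33.0, 32.9 and 30.3. *Nupr1* stayed last, at 5.34. The length used joins all annotated exons of a gene, 2514 bases for *Nupr1*, and its place depends on that length. In plain CPM *Nupr1* had a mean of 7.70 with vehicle and 8.20 at 10 µM, where *Ddit3* had 7.54 and 7.71.

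Over the 12 libraries the levels of the regulators other than *Atf3* were positively correlated. The median Pearson correlation of log2 CPM over their 36 pairs was 0.857, with a range of 0.493 to 0.952, and the 9 pairs with *Atf3* ranged from 0.122 to 0.382. These points share the dose groups. After the group means were taken off, the median over the 36 pairs was 0.387, with a range of -0.765 to 0.879 and 29 pairs positive, a description over few libraries that carries no test. The genes whose profile was most like the mean of the 10 included *Ahcyl1* (r = 0.979), *Hmgcs1* (0.978), *Ptk7* (0.976) and *Cars* (0.968), each over 12 libraries. *Cars* charges tRNA with cysteine, and *Hmgcs1* is an enzyme of cholesterol synthesis. *Ptk7*, a receptor-like pseudokinase, had 1.71 ± 0.227 CPM in the vehicle group and 6.35 ± 0.627 in the 50 µM group (SD, n = 4 each).

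Beyond the regulators, many ATF4 target genes of amino acid supply rose at 50 µM. Of 41 other ATF4 target genes listed, 39 could be tested, 23 rose, 1 fell and 15 were not called, with a median log2 fold change of 0.39. *Cth*, which makes cysteine from cystathionine, rose from 1.39 ± 0.440 to 29.0 ± 6.72 CPM (SD, n = 4 each; log2 fold change 4.38, standard error 0.23, adjusted p = 1.9e-07 in edgeR's test). At 10 µM it had 1.37 ± 0.304 CPM (SD, n = 4), the level of vehicle. *Asns*, the asparagine synthetase, went from 66.6 ± 9.32 to 133 ± 15.5 CPM (SD, n = 4 each), a log2 fold change of 1.00 with an adjusted p of 7.59e-05 in edgeR's test. The mitochondrial folate enzyme *Aldh1l2* rose from 0.836 ± 0.376 to 7.20 ± 1.58 CPM (SD, n = 4 each). *Pck2*, the mitochondrial enzyme that makes phosphoenolpyruvate, rose from 31.1 ± 3.56 to 84.8 ± 11.6 CPM (SD, n = 4 each), and *Gpt2*, an alanine transaminase, from 12.0 ± 0.883 to 28.8 ± 2.17 (SD, n = 4 each).

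By function, at 50 µM 7 of 8 tested genes of amino acid synthesis rose, the median of the 8 being 0.93 on the log2 scale, and *Phgdh*, the first enzyme of serine synthesis, did not pass (0.03, adjusted p = 0.827). All 3 one-carbon enzymes rose, at 0.53 for *Shmt2*, 0.73 for *Mthfd2* and 3.11 for *Aldh1l2*. Of 8 amino acid transporters 4 rose, at 1.74 for *Slc6a9*, 1.24 for *Slc1a4*, 0.40 for *Slc1a5* and 0.31 for *Slc3a2*. *Slc38a2*, which carries neutral amino acids and glutamine, fell, with a log2 fold change of -0.35 (adjusted p = 0.00895), and the cystine transporter *Slc7a11* had -0.12 (adjusted p = 0.445). Of 6 aminoacyl-tRNA synthetases 5 rose, at 0.53 for *Sars*, 0.48 for *Wars*, 0.42 for *Gars*, 0.39 for *Aars* and 0.29 for *Mars*, and *Nars* had 0.17 (adjusted p = 0.139). Of the 14 remaining tested genes 4 rose, among them *Gdf15*, a secreted stress hormone, from 1.71 ± 0.727 to 9.85 ± 2.95 CPM (SD, n = 4 each). The other three were *Pck2*, *Stc2* and *Vldlr*. These classes, and the genes named in them beyond the most significant of the list, were set after the values had been seen. All p-values are from edgeR's test, adjusted over all genes.

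At 10 µM none of the 39 was called by edgeR's test, DESeq2 or limma-voom, while 3 higher and 1 lower had an unadjusted p under 0.05, as had 1308 of all 14894 genes, and the median log2 fold change was 0.02. Between 50 µM and 10 µM, 24 rose and 2 fell, *Slc38a2* (-0.24) and the oxidoreductase *Ero1l* (-0.50). The count of 2 was 4 with DESeq2, and 1 with all 12 libraries in the fit and without 10 µM replicate 2 or 3 or 50 µM replicate 2. The count of 23 at 50 µM against vehicle stayed between 21 and 25 in every other fit, those without 1 library included.

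**Figure D3:**
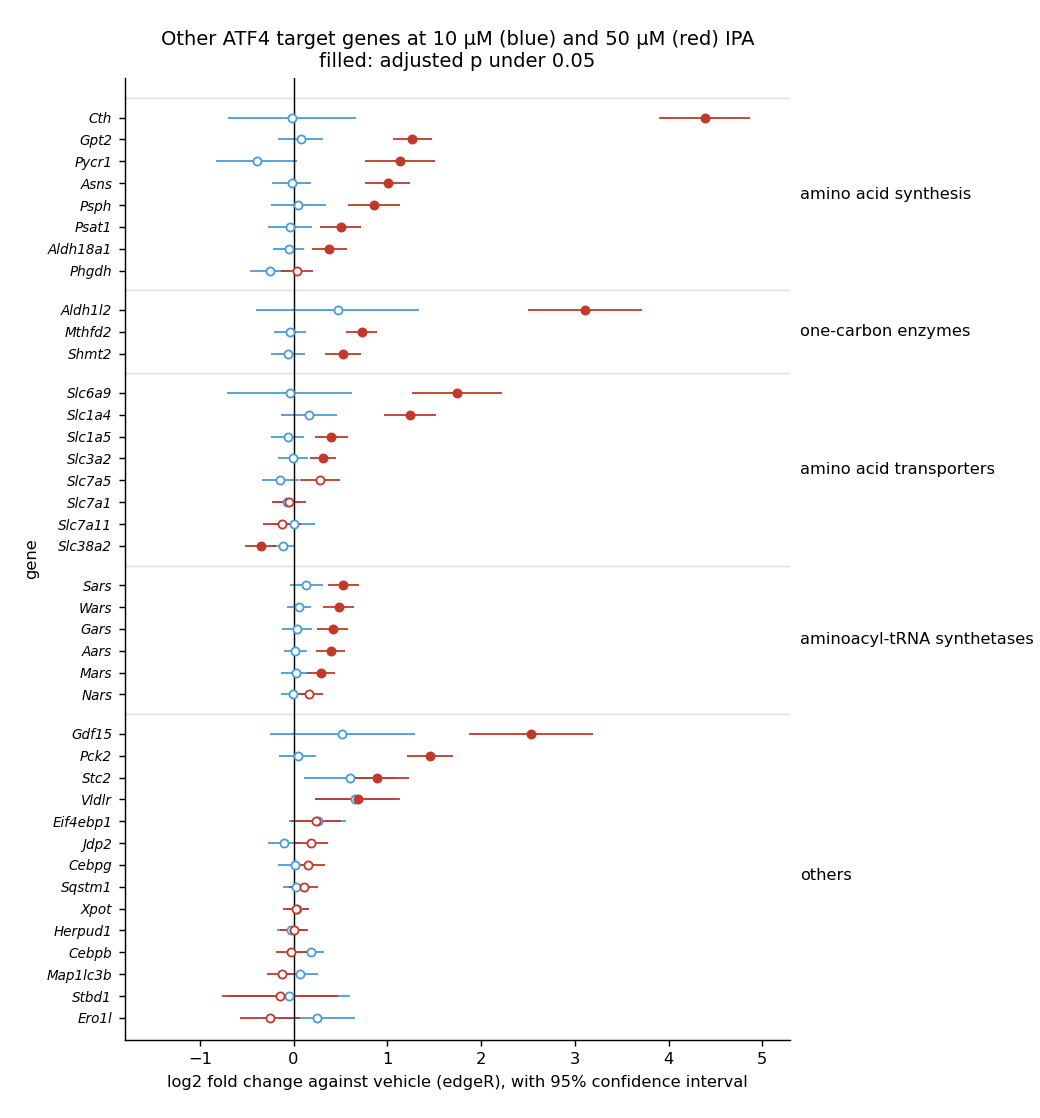
Log2 fold change against vehicle of the 39 tested ATF4 target genes outside the 10 regulators, with 95% confidence intervals, at 10 µM (blue) and 50 µM (red), grouped by function; filled points passed an adjusted p of 0.05. The blue points have their median at 0.02 and run from -0.39 to 0.65, none of them filled, and 24 red points are filled, 23 of them to the right of 0 with *Cth* at 4.38.

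Upstream of ATF4, no kinase gene was called higher at 50 µM against vehicle or against 10 µM. *Eif2ak1* (HRI) fell from 78.7 ± 4.27 to 64.6 ± 4.19 CPM (SD, n = 4 each; log2 fold change -0.28, adjusted p = 0.0280 in edgeR's test), a call lost in 4 of 8 fits that left out 1 library (without vehicle replicate 1 or 3, or 50 µM replicate 2 or 3). *Eif2ak3* (PERK) fell from 49.6 ± 3.68 to 39.0 ± 1.102 CPM (SD, n = 4 each; -0.34, adjusted p = 0.0109 in edgeR's test). *Eif2ak2* (PKR) had -0.02 and *Eif2ak4* (GCN2) 0.15, with adjusted p of 0.958 and 0.553. Against 10 µM *Eif2ak4* had 0.21 (adjusted p = 0.145), and without 10 µM replicate 4 a kinase gene was called higher there. Of 6 genes that feed the kinases only *Dnajc3*, an inhibitor of PERK and PKR, was called, and it fell by 0.42 on the log2 scale. Without vehicle replicate 2, 1 of the 6 was called higher. Of 8 subunits of eIF2 and its exchange factor eIF2B, *Eif2s2* (the beta subunit) alone was called, at 0.32 (adjusted p = 0.0223). That call was lost without vehicle replicate 1 or without 50 µM replicate 2 or 3, and 2 subunits were called higher without vehicle replicate 4. *Ppp1r15b*, the constitutive partner of GADD34's phosphatase, had 258 ± 4.30 CPM with vehicle and 261 ± 17.6 at 50 µM (SD, n = 4 each; log2 fold change 0.02, adjusted p = 0.885 in edgeR's test), where *Ppp1r15a* had 0.54. Of the 4 other subunits of this phosphatase, *Ppp1cc*, a catalytic subunit, alone was called, and it fell (-0.25, adjusted p = 0.0328). That call was lost with the replicate block and in 4 of 8 fits that left out 1 library (without vehicle replicate 3, or 50 µM replicate 2, 3 or 4).

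Among 9 partners of ATF4 and genes for its turnover, *Btrc*, a subunit of the ligase that marks ATF4 for degradation, rose by 0.49 on the log2 scale (adjusted p = 0.00967), while *Cebpd* (-0.53) and *Nfe2l2* (-0.30) fell. The C/EBP partners *Cebpb*, *Cebpg* and *Cebpa* were not called, at -0.02, 0.15 and -0.13. Of 11 paralogs of the regulators 10 could be tested. *Trib1* fell (-0.36, adjusted p = 0.0209), a call lost in 5 of 8 fits that left out 1 library (without vehicle replicate 1 or 3, or 50 µM replicate 1, 2 or 4), and *Trib2* had 0.26 (adjusted p = 0.576), against 1.33 for *Trib3*. *Sesn1* had 0.28 and *Sesn3* 0.11, with adjusted p of 0.112 and 0.656, against 0.50 for *Sesn2*. Against 10 µM, *Sesn1* (0.37, adjusted p = 0.0375), *Sesn3* (0.34, adjusted p = 0.0371) and *Jdp2* (0.28, adjusted p = 0.0227) rose at 50 µM, where *Sesn2* had 0.42. These 3 calls fell to 0 without 10 µM replicate 3, 50 µM replicate 2 or 50 µM replicate 4, and to 1 without 10 µM replicate 2 or 4. By gene, the calls of *Sesn1* and *Sesn3* were each lost in 6 of these 8 fits and that of *Jdp2* in 4. In 9 other fits, which changed the method, scaling, filter or model, the call of *Sesn1* was lost in 1 and that of *Sesn3* in 2. *Trib1* fell against 10 µM as well (-0.44, adjusted p = 0.00228), a call that held without each library in turn. Against vehicle no paralog was called higher, except 1 without 50 µM replicate 1. *Chac2* had 0.46 (adjusted p = 0.119), *Jdp2* 0.19, *Atf1* -0.07 and *Atf2* -0.08. *Ddit4l* had at most 0.654 CPM as a group mean, and *Nupr1l* was below the filter. At these low counts *Ddit4l* had 1.22 against vehicle (adjusted p = 0.194 in edgeR's test) and 1.35 against 10 µM (adjusted p = 0.151). The differences between paralogs were not themselves tested.

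The other arms of the unfolded protein response act through XBP1 and ATF6 in the endoplasmic reticulum. Of 18 of their targets tested at 50 µM, none was called higher against vehicle (1 without vehicle replicate 4) and 4 fell, where 6.50% of all genes were called lower, and the median of the 18 was -0.13 on the log2 scale. The 4 were *Dnajb9* (-0.67, adjusted p = 0.000483), *Dnajc3*, *Hspa13* (-0.37) and *Syvn1* (-0.34), while the chaperone *Hspa5* (BiP) had -0.11 (adjusted p = 0.405) and *Xbp1* itself 0.14 (adjusted p = 0.276). Against 10 µM, *Xbp1* rose (0.27, adjusted p = 0.00346) and 5 of the 18 fell, a count of 3 without 50 µM replicate 4. The call of *Syvn1* against vehicle was lost without 50 µM replicate 4. Against vehicle none was higher and 7 were lower at an unadjusted p under 0.05. DESeq2 called 7 lower, the fit of all 12 libraries 7 and limma-voom 4. Of 6 genes of the mitochondrial unfolded protein response, *Hspa9* (0.28) and *Hspe1* (0.35) rose, and the call of *Hspe1* was lost in 6 of 8 fits that left out 1 library (without vehicle replicate 1, 2 or 3, or 50 µM replicate 1, 2 or 3).

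Genes tied to CHOP and cell death went both ways. Of 7 tested, 4 rose at 50 µM and 1 fell. *Bcl2*, which protects from apoptosis and is known to be repressed by CHOP, rose from 18.7 ± 2.05 to 33.9 ± 1.61 CPM (SD, n = 4 each; log2 fold change 0.86, adjusted p = 7.76e-05 in edgeR's test). *Bcl2l11*, which encodes the death-promoting BIM and is known to be induced by CHOP, fell from 79.6 ± 4.07 to 52.1 ± 2.08 (SD, n = 4 each; -0.60, adjusted p = 0.00014 in edgeR's test). *Pmaip1* (NOXA) rose by 0.71 on the log2 scale, the death receptor *Tnfrsf10b* by 0.50 and *Bbc3* (PUMA) by 0.45, and the call of *Bbc3* was lost with limma-voom and in 7 of 8 fits that left out 1 library, all but that without vehicle replicate 4.

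Other stress programs were listed beside the regulators because several of the 10 answer to more than ATF4. *Sesn2* and *Ddit4* are known targets of p53, and 7 of 11 p53 target genes rose at 50 µM with none lower (median log2 fold change 0.34), with *Plk2* at 1.00, *Zmat3* at 0.54, *Mdm2* and *Cdkn1a* at 0.44 and *Ccng1* at 0.33. *Ddit4* is also a hypoxia target, and of 14 hypoxia genes 5 fell at 50 µM and none was called higher by edgeR's test. They were *Pfkfb3* (-0.49), *Egln3* (-1.03), *Ankrd37* (-0.80), *Ndrg1* (-0.73) and *Slc2a1* (-0.43). This count fell to 1 without vehicle replicate 3, to 2 without 50 µM replicate 2 or 3, and to 3 without 50 µM replicate 4, and DESeq2 called 6 lower and 1 higher. Genes called higher numbered 2 without the filter and 1 each with all 12 libraries, with the replicate block and without 50 µM replicate 1. Against 10 µM, 10 of the 14 were called lower and 1 higher, the latter count being 0 without 10 µM replicate 2 or 50 µM replicate 2 or 3. At 10 µM, 13 of the 14 had a positive log2 fold change, with a median of 0.32 and none called, 4 at an unadjusted p under 0.05. The median of all genes was -0.01. Some of these hypoxia genes varied widely between vehicle libraries, *Bnip3* from 28.5 to 88.5 CPM and *Egln3* from 145 to 401.

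Among 8 NRF2 targets *Osgin1* (0.76) and *Nqo1* (0.68) rose at 50 µM, and *Hmox1*, which degrades heme, rose at 10 µM (0.58, adjusted p = 0.0460) and had 0.00 at 50 µM. *Sgk1*, 1 of 6 glucocorticoid targets, likewise rose at 10 µM (0.49, adjusted p = 0.0454) and had -0.07 at 50 µM. Both calls at 10 µM were lost in 7 of 8 fits that left out 1 library, all but that without vehicle replicate 4. Both were also lost with the replicate block, and that of *Sgk1* with library totals without scaling. Of 11 immediate early genes, which like *Atf3* respond quickly to stimulation, *Egr2* (0.63), *Egr1* (0.44) and *Egr3* (0.41) rose at 50 µM and *Dusp1* fell (-0.25), a call lost in 6 of 8 such fits (without vehicle replicate 1, 2 or 3, or 50 µM replicate 1, 2 or 3). It was also lost without the filter, with all 12 libraries in the fit and with the replicate block. The call of *Egr3* was lost without 50 µM replicate 3. Over the 15 lists and their 150 distinct tested genes, 2 rose and 0 fell at 10 µM, against 43 and 18 at 50 µM.

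**Figure D4:**
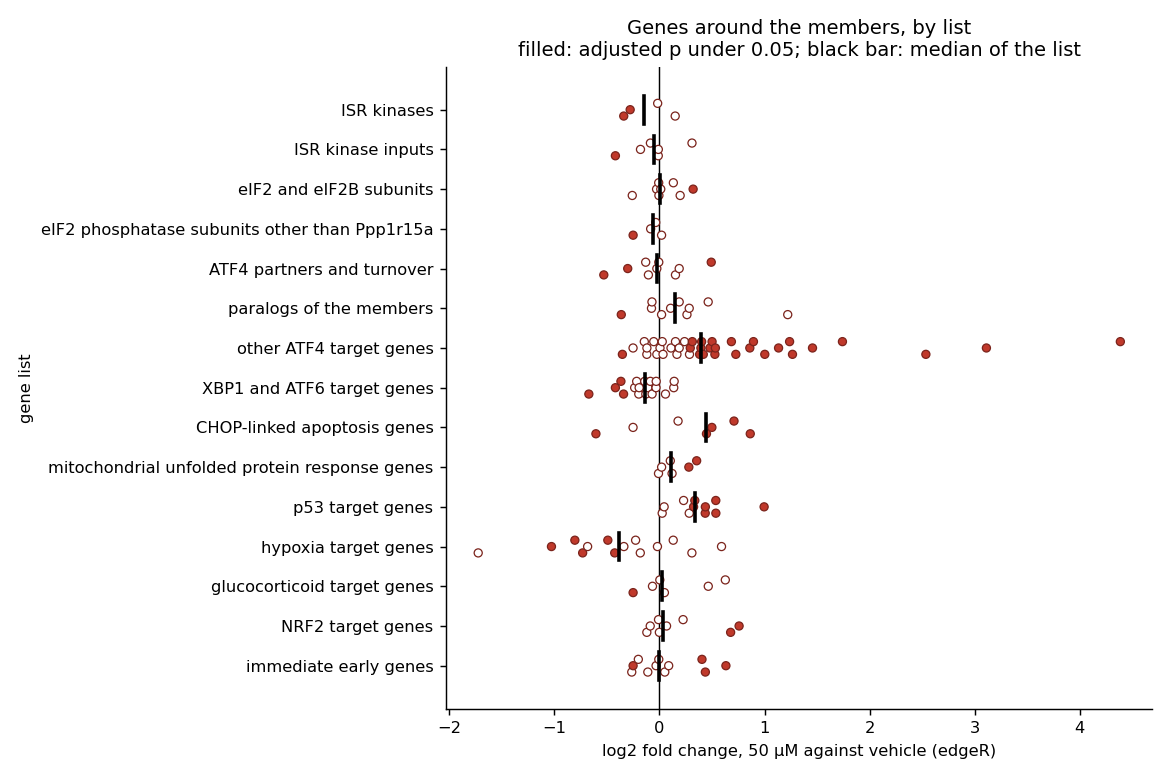
Log2 fold change at 50 µM against vehicle of every tested gene in the 15 lists around the regulators; each point is a gene, filled where the adjusted p was under 0.05, and the black bar is the median of the list. The list of other ATF4 target genes has its median at 0.39 and reaches 4.38, while the medians of the kinases (-0.15), of the XBP1 and ATF6 targets (-0.13) and of the hypoxia genes (-0.38) lie below 0.

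Since 9 of the 10 regulators were higher at 50 µM than in both other groups, their promoters were read for the sites that ATF4 and related factors are known to use. RefSeq (GRCm38.p6) gave a window of 250 bases before to 50 after the start for all 10, with 2 starts for *Atf5*. The letters TGATGNAAT, a form of the composite element bound by ATF4 with a C/EBP partner, occurred on either strand in 1 of the 10, *Nupr1*, and in 0.965% of 32851 promoters. The shorter core TGATGCAA, chosen after the promoters of the 10 had been read and overlapping the first motif, was in *Atf3*, *Chac1* and *Nupr1*, and in 0.895% of all promoters. The letters TGACGTCA, the palindrome bound by the ATF and CREB family and also chosen after reading, were in *Ppp1r15a* and in 1.79% of all. The matches are printed on the strand of the gene, 5′ to 3′, with the motif in capitals; TTGCATCA is the core read on the other strand.
*Atf3*, chr1:191183400-191183479, minus strand, motif from 110 bases before the start: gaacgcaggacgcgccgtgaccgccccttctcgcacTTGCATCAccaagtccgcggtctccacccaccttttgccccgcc
*Chac1*, chr2:119351013-119351092, plus strand, motif from 193 bases before the start: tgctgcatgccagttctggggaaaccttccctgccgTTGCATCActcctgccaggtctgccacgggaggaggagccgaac
*Nupr1*, chr7:126625562-126625591, minus strand, motif from 110 bases before the start: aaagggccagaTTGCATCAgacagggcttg
*Ppp1r15a*, chr7:45526269-45526316, minus strand, motif from 12 bases before the start: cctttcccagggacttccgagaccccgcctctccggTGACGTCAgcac
The windows of *Chac1* and *Ppp1r15a* lie outside any gene of GENCODE M21, that of *Atf3* lies inside its own gene where there is no exon, and that of *Nupr1* in an exon of another *Nupr1* transcript. The regulators with the motif in these windows differed in response, since *Chac1* and *Nupr1* had log2 fold changes of 1.02 and 0.81 at 50 µM and *Atf3* 0.40, and *Trib3* and *Ddit3*, at 1.33 and 0.99, had no match to any of the 3. Of the 41 other ATF4 targets, 32 had a promoter in the table, and the core was in 8. Of these, *Aars*, *Pycr1*, *Slc1a4* and *Vldlr* were among the 23 that rose at 50 µM, *Herpud1*, *Jdp2* and *Slc7a11* were not called, and *Fgf21* was not tested. A match is a stretch of letters and not a measured binding site.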

How the data were processed

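RNA was sequenced from 12 bone marrow cultures, 4 per group, with a stranded mRNA kit. The authors trimmed the reads, aligned them to mm10 (HISAT2 2.2.1 in the submitters' processing notes) and deposited raw counts per Ensembl gene (featureCounts 2.0.1) without normalization or filter. The strand setting is not given in the sources used here. The title of 10 µM replicate 3 repeats that of replicate 2, so its library name gave its number. The filter kept 14894 genes, those that exceeded 0.5 CPM in 2 or more libraries. Each pair of groups was fitted on its own 8 libraries with edgeR 4.0.16 (TMM, quasi-likelihood test, two-sided) in R 4.3.3, and no block for replicate numbers. P-values were adjusted over all 14894 genes by the method of Benjamini and Hochberg, with a threshold of 0.05. The tests were run on simulated data first. The authors used DESeq2, which was an alternative here (version 1.42.0), with limma 3.58.1 (voom), other scalings and filters, all 12 libraries in the fit, a replicate block, an offset for exon length and each library left out in turn. The standard error of each edgeR log2 fold change was derived as its absolute value divided by the square root of the test's F statistic. Intervals are 95% intervals, built from these standard errors with the t distribution. The members and lists were chosen with earlier results of these data known. The genes named are the 10 members, up to 6 called genes per list and comparison with the smallest adjusted p, the kinases, the paralogs and *Ppp1r15b*, and the 5 genes of at least 1 CPM most like the members' mean, of which 1 is not reported here. Positions are those of GENCODE M21 (GRCm38), and promoters those of RefSeq GRCm38.p6. No library was a copy of another. Depth was 20451312 to 28038612 counts per library, and the members had between 143 and 10364 counts each.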

Additional observations from a re-analysis of the deposited data

Results flagged for a closer look

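Of the 30 sets of 4 libraries checked, 10 regulators in 3 groups, 1 held a library far from the others. *Atf5* in replicate 3 of the 50 µM group had 56.4 CPM, where the other libraries of the group had 67.7 to 69.2, and the gap was 0.883 of the range of the group. Chance alone flags about 1 in 20 such sets. In this library, longer genes also had fewer counts relative to shorter ones than in any other (slope of log2 CPM on log2 exon length -0.07, against -0.05 to 0.04). Without this replicate the call of *Atf5* at 50 µM held, as it did in each of the 8 fits that left out 1 library (log2 fold change 0.58 to 0.73). Whether the slope had a part in this value was not tested. The check by single genes does not show shifts that several regulators share. The mean z score of the 10 regulators (log2 CPM scaled per gene over all libraries) was 0.62, 0.98, 1.29 and 1.53 in 50 µM replicates 1 to 4.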

How the results depend on the processing

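The counts of regulators called at 50 µM were the same in every alternative except those that left out 1 library for *Atf3*. At 10 µM 1 of them, *Atf3*, was called with DESeq2, without the filter or with all 12 libraries in the fit (1 each), and between 0 and 1 without 1 library. Over all genes at 10 µM, 61 were called, 250 with DESeq2, 150 without the filter, 118 with all 12 libraries, 101 with the exon length offset and 3 with the replicate block, and 4 to 122 when 1 library was left out (4 without 10 µM replicate 2, 122 without vehicle replicate 4). At 50 µM against vehicle 2010 were called, and 1248 (without vehicle replicate 3) to 2689 (without vehicle replicate 4) when 1 was left out. The cause was not tested. Signs turned only where the change was small, the largest being 0.15 for *Eif2ak4* at 50 µM against vehicle. At 10 µM *Ddit3* had 0.03, and -0.0087 with the exon length offset. Without 1 library it ranged from -0.0292 to 0.1435, *Trib3* from -0.039 to 0.258, *Ddit4* from -0.1461 to 0.0461, *Ppp1r15a* from -0.0553 to 0.1662 and *Nupr1* from -0.0085 to 0.22. At 50 µM *Eif2ak2* had 0.0081 with limma-voom and with the replicate block, and without 1 library -0.15 to 0.13, *Eif2ak4* -0.0028 to 0.26 and *Ppp1r15b* -0.0278 to 0.0403. Whether replicate numbers pair the libraries is not given in the labels. The correlations of deviations between same-numbered libraries were -0.24 to 0.14, which cannot settle it. For flow cytometry of this culture assay the authors used a repeated-measures test. With the replicate block 0, 10 and 9 of the regulators were called in the 3 comparisons, and 1830 and 2200 genes at 50 µM against vehicle and against 10 µM. The lowest counts behind a member were those of *Ddit3*, *Chac1* and *Nupr1*, at 143 to 480 per library.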

Other observations

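Among the markers of cells other than myeloid ones, *Pax5*, the factor that fixes B cell identity, had 3.19 ± 0.950 CPM in the vehicle group, 3.84 ± 1.04 at 10 µM and 7.87 ± 1.54 at 50 µM (SD, n = 4 each). Its log2 fold change at 50 µM against vehicle was 1.31 (adjusted p = 0.00144 in edgeR's test).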
